A study of Mus musculus with 4 samples.

Results

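The mitochondrial ribosomal protein genes are the nuclear genes whose products, imported into the organelle, form the protein part of the mitochondrial ribosome. They were taken from a table of transcript abundances in the mouse trigeminal ganglion, which holds the cell bodies of the facial sensory neurons with their glia, as every row whose symbol is Mrpl or Mrps followed by a number and at most a letter a to c. The rule found 78 genes among 56035 gene rows: 51 of the large subunit, 26 of the small subunit, and Mrps36, which was placed in neither. All mice were C57BL/6 males, 8 weeks old. The first group bore the K823R change of TRPV1, the heat- and capsaicin-gated channel of pain-sensing neurons, and is called transgenic in the genotype label and knock-in in the extraction protocol. The second was their control littermates, labelled WT (wild type). Each group had 2 libraries, the protocol speaks only of pairs of ganglia, and the sources used here do not give the number of animals behind a library. The p-values below thus refer to the spread among these 4 samples alone, and that spread may be technical. All members are measured in the same bulk tissue, in which fewer cells of a type and less RNA per cell cannot be told apart.

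Mitochondrial ribosomes translate the few mRNAs of the mitochondrial genome, which encode core subunits of the respiratory chain and of ATP synthase. The ribosome's RNAs are made inside the organelle, whereas its proteins are made in the cytosol, so the particle is assembled from the products of separate genomes. Many of its proteins descend from bacterial ribosomal proteins, and others were added during the evolution of mitochondria. Sensory neurons of the ganglion depend on respiration to maintain ion gradients along long axons, and mutations in several of these genes cause human mitochondrial disease.

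No mitochondrial ribosomal protein gene differed between the genotypes by the test across all genes. All 78 were above the filter of a mean of 1 TPM (the usual length-normalised unit, an abundance corrected for transcript length, with 1 total shared by all libraries), and 0 of 78 passed limma at an adjusted p below 0.05, where 0.00650% of the 15390 genes tested passed. As a set they stood a little lower in K823R: 53 of 78 had a lower mean there, against 42.6% of all genes tested, and the median log2 difference was -0.05, against 0.03 over all genes tested. The differences were small, with 63 of 78 below 0.2 in size on the log2 scale. Most other genes were below it too: 11461 of the 15390 tested, and 7758 of the 9100 tested at a mean of at least 10 TPM. The smallest p-values belonged to Mrps17 and Mrpl52 on the higher side and to Mrps22 and Mrpl32 on the lower side. Among the members the median standard error (SE) of a log2 difference was 0.09.

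The start regions of these 4 genes, and of the head-to-head pair Mrpl46 and Mrps11, are shown because the members shared sequence features there that their choice by name did not use. RefSeq sequences on GRCm38.p6, from 250 bases before to 50 bases after the start, were at hand for 69 of the 78 genes. They were searched on both strands for the ETS-family letters CCGGAAG, the YY1 letters AAGATGGC, the palindromic NRF1 letters (the longest run of capitals in the Mrpl32 sequence) and the TATA letters TATAAA. ETS factors, YY1 and NRF1 are transcription factors known to bind the promoters of many nuclear genes for mitochondrial proteins. Each sequence runs 5′ to 3′ on the gene's own strand, and capitals mark the ETS, YY1 and NRF1 letters or their reverse complements. Mrps17 (chr5:129715247-129715546, plus strand) held none of the marked motifs, and Mrpl52 (chr14:54426659-54426958, plus strand) held the ETS letters in 2 places.
Mrps17: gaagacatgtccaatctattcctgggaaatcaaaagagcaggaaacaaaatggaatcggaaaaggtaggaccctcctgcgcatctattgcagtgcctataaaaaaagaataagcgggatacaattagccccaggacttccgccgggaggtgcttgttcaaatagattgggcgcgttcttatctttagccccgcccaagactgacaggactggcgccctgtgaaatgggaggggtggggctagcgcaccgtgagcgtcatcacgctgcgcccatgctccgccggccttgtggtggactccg
Mrpl52: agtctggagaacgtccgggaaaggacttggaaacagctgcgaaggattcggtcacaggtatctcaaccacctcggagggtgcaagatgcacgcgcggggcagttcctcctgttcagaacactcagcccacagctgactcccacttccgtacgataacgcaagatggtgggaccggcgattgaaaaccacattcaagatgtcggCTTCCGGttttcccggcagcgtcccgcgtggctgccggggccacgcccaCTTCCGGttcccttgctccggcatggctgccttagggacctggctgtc
Mrps22 (chr9:98601630-98601929, minus strand) held the ETS letters in 1 place, and Mrpl32 (chr13:14612988-14613287, minus strand) held the NRF1 and the YY1 letters.
Mrps22: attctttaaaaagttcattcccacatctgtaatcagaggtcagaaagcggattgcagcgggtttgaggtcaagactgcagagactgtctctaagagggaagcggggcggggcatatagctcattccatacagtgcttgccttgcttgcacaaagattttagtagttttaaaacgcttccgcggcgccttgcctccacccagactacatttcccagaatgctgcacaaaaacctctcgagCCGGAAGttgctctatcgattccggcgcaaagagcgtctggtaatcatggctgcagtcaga
Mrpl32: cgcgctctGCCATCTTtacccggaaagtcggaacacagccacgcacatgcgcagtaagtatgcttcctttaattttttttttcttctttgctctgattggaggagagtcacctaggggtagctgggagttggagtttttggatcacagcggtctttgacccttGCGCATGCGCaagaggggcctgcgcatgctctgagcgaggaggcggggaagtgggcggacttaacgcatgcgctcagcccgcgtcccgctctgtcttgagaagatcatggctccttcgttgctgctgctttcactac
Mrpl46 (chr7:78783040-78783339, minus strand) and Mrps11 (chr7:78782881-78783180, plus strand) start back to back, and the windows of both cover the same bases in part. The YY1 letters stood in the Mrps11 window, outside the bases it shares with the Mrpl46 window.
Mrpl46: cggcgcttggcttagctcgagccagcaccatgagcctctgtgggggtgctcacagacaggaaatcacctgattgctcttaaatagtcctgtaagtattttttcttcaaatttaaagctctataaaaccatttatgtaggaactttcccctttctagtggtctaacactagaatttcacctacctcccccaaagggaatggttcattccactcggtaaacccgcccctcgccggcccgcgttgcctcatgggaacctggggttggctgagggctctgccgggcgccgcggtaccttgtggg
Mrps11: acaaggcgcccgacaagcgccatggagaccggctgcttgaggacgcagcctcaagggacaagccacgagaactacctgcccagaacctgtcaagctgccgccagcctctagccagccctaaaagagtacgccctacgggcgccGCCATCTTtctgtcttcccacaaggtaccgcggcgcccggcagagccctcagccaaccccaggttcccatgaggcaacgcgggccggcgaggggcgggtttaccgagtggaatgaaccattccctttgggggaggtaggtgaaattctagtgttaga

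The ETS letters were in 26 of the 69 start regions (37.7%), against 9.93% of all 27025 genes with such a sequence and 18.6% of the 11083 that were also tested here. The YY1 letters were in 12 (17.4%), against 3.19% and 4.94%. The NRF1 letters were in 3 (4.35%), those of Mrpl32, Mrpl39 and Mrpl9, against 1.07% and 2.21%. The TATA letters were in 5 (7.25%), Mrps17 and Mrpl46 among them, against 15.7% and 8.89%. In all, 37 of 69 start regions held at least 1 of the ETS, YY1 and NRF1 motifs, 3 held both ETS and YY1, and in none of those 3 did the matches overlap. A match of letters is a description of the sequence and not a binding site, and no binding data were analysed here. The 26 members with the ETS letters had a median log2 difference of -0.08 between K823R and WT, with 19 of them lower, and the 43 without had -0.03, with 29 lower. For the YY1 letters the order was the other way. The 12 members with them had -0.02, with 7 lower, and the 57 without had -0.08, with 41 lower. The 3 members with the NRF1 letters had -0.18, with 2 lower, and the 66 without had -0.04, with 46 lower. These contrasts between members were not tested.

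Another shared feature was a neighbour on the opposite strand. In the GENCODE M21 annotation, 33 of 78 members (42.3%) had a protein-coding gene whose start lay within 1000 bases and which ran the other way, against 15.2% of the 13374 protein-coding genes tested. Several partners are mitochondrial genes themselves: Mrpl46 faced Mrps11, Mrpl36 faced Ndufs6 of respiratory complex I, Mrpl47 faced Ndufb5 of the same complex, Mrpl43 faced Twnk, the mitochondrial DNA helicase, and Mrps12 faced Sars2, the mitochondrial seryl-tRNA synthetase. These pairs were chosen after the annotation was seen. Mrpl46 was at 53.0 and 54.4 TPM in WT against 53.3 and 51.6 TPM in K823R, and Mrps11 was at 49.7 and 48.8 TPM in WT against 46.5 and 42.8 TPM in K823R. The Mrpl46 libraries overlapped between genotypes, and those of Mrps11 were lower in K823R by 0.14 on the log2 scale (SE 0.08, limma adjusted p = 0.918). Mrpl46 and Mrps11 share exon bases on opposite strands, 173 in the longest stretch, so their reads may not have been told apart. The members lay on 17 chromosomes, with 11 on chromosome 11, which also carries Trpv1. Of those 11, 6 were higher and 5 lower in K823R, whereas of the 67 on other chromosomes 19 were higher and 48 lower. The contrast was not tested, and no share over all genes of chromosome 11 was taken.

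Because TPM is corrected for length, levels can be set beside each other between genes. The mean over the 4 libraries ran from 6.67 TPM for Mrpl23 to 299 TPM for Mrpl52, a 44.9-fold range, but 62 members lay between 25 and 150 TPM, and the 90th percentile was 5.81-fold above the 10th. In the order of mean level, 71 of the 77 neighbouring pairs had ranges that overlapped over the libraries, so most neighbours cannot be ranked. The order itself was alike in every library, with a Spearman rho of at least 0.97 over the 78 genes for each pair of libraries, a description of genes that share tissue, length and processing. The range of a member over its 4 libraries was 1.20-fold at the median, against 1.18-fold for all genes at 10 TPM or more.

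**Figure D1:**
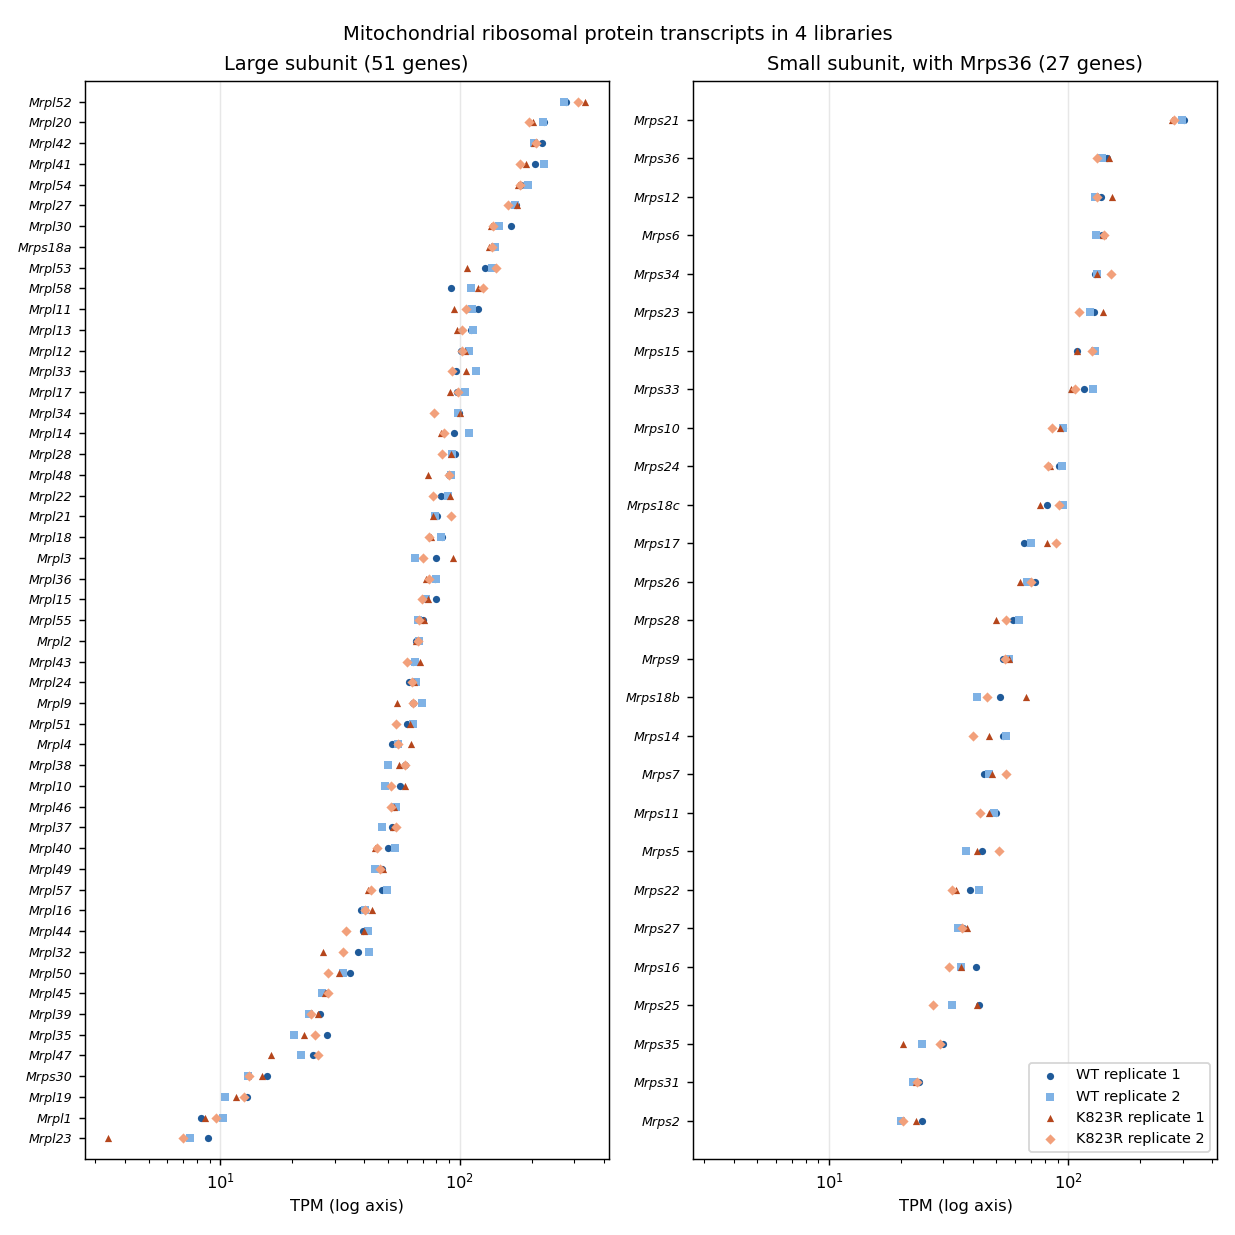
TPM of each of the 78 genes in the 4 libraries on a log axis, ordered by mean level, with the large subunit on the left and the small subunit with Mrps36 on the right. The 4 points of a gene mostly lie on top of each other, and Mrpl23 is the lowest and most spread gene of the large subunit.

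At the top stood genes of both subunits. Mrpl52, a large-subunit protein with no bacterial counterpart, led at 277 and 274 TPM in WT against 334 and 312 TPM in K823R. Mrps21, the counterpart of bacterial S21, followed at 305 and 299.6 TPM in WT against 272 and 277 TPM in K823R. Their order differed between the genotypes: Mrps21 was above Mrpl52 in both WT libraries and below it in both K823R libraries, and the difference of the differences was not tested. Mrpl20, whose bacterial counterpart acts early in large-subunit assembly, was at 226 and 224 TPM in WT against 203 and 195 TPM in K823R. Mrpl42, a mitochondria-specific protein, was at 221 and 205 TPM in WT against 205 and 209 TPM in K823R, with no separation of the groups.

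The lowest levels belonged to Mrpl23, Mrpl1, Mrpl19, Mrps30 and Mrpl47. Mrpl1, the counterpart of the protein of the mobile L1 stalk, was at 8.31 and 10.3 TPM in WT against 8.60 and 9.57 TPM in K823R. Mrpl19 was at 12.96 and 10.4 TPM in WT against 11.6 and 12.6 TPM in K823R. Mrps30, which despite its name sits in the large subunit, was at 15.7 and 12.97 TPM in WT against 14.9 and 13.1 TPM in K823R. All 3 overlapped between the genotypes. Mrpl47, the counterpart of bacterial L29 near the exit of the peptide tunnel, was at 24.4 and 21.6 TPM in WT against 16.3 and 25.4 TPM in K823R, and it shares exon bases with Ndufb5 on the opposite strand, at a mean of 215 TPM. Longer members had lower levels, with Pearson's r = -0.53 between the log2 values of deposited gene length and TPM. Spearman's rho was -0.60 across the 78 genes, which are not independent replicates. Length also enters TPM through its correction, and the part of this in the correlation was not tested.

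**Figure D2:**
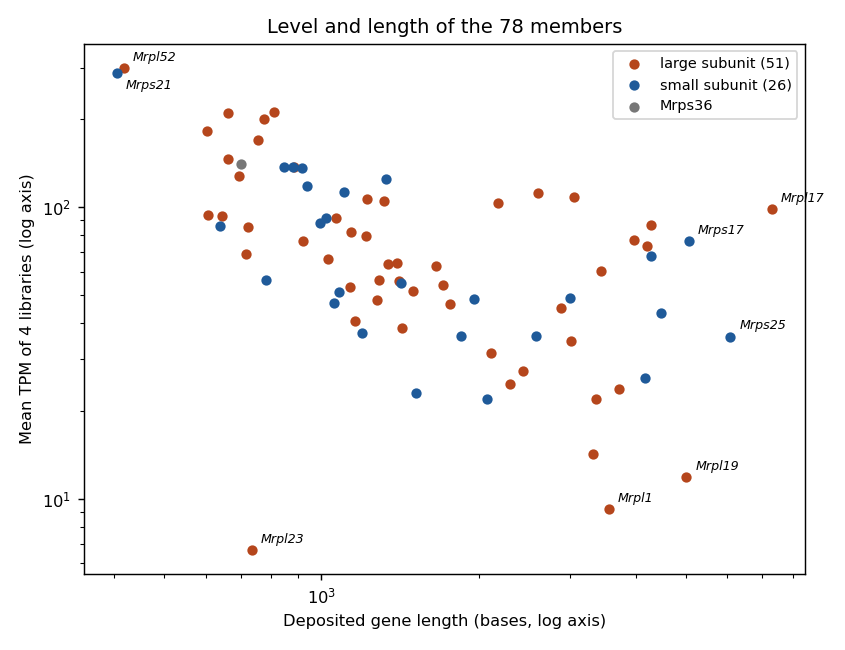
Mean TPM of each member against its deposited gene length in bases, both on log axes, coloured by subunit. Mrpl52 (418 bases) and Mrps21 (405 bases) are the shortest and most abundant, Mrpl17 (7300 bases) is the longest, and Mrpl23 (736 bases) lies far below genes of its length.

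The low value of Mrpl23 stood beside a high value of a near-identical copy. Mrpl23 encodes the counterpart of bacterial L23, which lines the rim of the peptide exit. It was at 8.89 and 7.44 TPM in WT against 3.40 and 6.94 TPM in K823R, so both K823R libraries were lower, with a log2 difference of -0.63 (SE 0.31, 95% interval -1.45 to 0.19, limma adjusted p = 0.918). Without K823R replicate 1 the difference was -0.20, and without K823R replicate 2 it was -1.05. Mrpl23-ps1, an intronless copy on chromosome 2 (74591330 to 74591909, minus strand), was at 101 and 113 TPM in WT against 114 and 118 TPM in K823R. The copy matched the Mrpl23 transcript at 100% identity over 540 bases, which are 93.1% of the copy and 78.03% of the transcript. Summed, the pair stood at 110 and 120 TPM in WT against 117 and 125 TPM in K823R, which overlap. How the reads of the shared bases were divided between the 2 loci cannot be read from TPM values, and the level and the difference of Mrpl23 are uncertain for that reason.

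Most copies of other members were listed at 0. How shared reads were divided cannot be read from such a value either. In all, 16 of 78 members had 19 copies elsewhere in the annotation (at least 95% identity over at least 150 bases and 90% of the copy), and 16 of the 19 copies were listed at 0 in every library. Apart from Mrpl23, the only member with a copy at a mean of 1 TPM or more was Mrps33, at 116 and 126 TPM in WT against 102 and 107 TPM in K823R, whose copy Gm5776 was at 4.48, 5.97, 8.33 and 5.34 TPM in the same order. Further, 21 members shared exon bases with another gene at 1 TPM or more, 19 of them with a gene on the opposite strand. The strand setting of the counting is not given in the sources used here, so reads of such pairs may not have been told apart.

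Summed over genes, the subunits stood close together between the genotypes. The 78 members came to 6503 and 6522 TPM in the WT libraries and 6337 and 6269 TPM in the K823R libraries, which is 0.650% and 0.652% of all transcripts in WT and 0.634% and 0.627% in K823R. Both K823R sums lay below both WT sums, and the K823R mean was 96.8% of the WT mean. The large subunit was at 4303 and 4337 TPM in WT against 4179 and 4134 TPM in K823R (96.2% of WT), and the small subunit at 2055 and 2047 TPM in WT against 2010 and 2003 TPM in K823R (97.8% of WT). The mean level per large-subunit gene was 1.07 and 1.08 times that per small-subunit gene in WT, and 1.06 and 1.05 times in K823R. With 2 libraries against 2, an exact two-sided permutation test cannot give a p under 0.333, so no test of these sums was made.

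**Figure D3:**
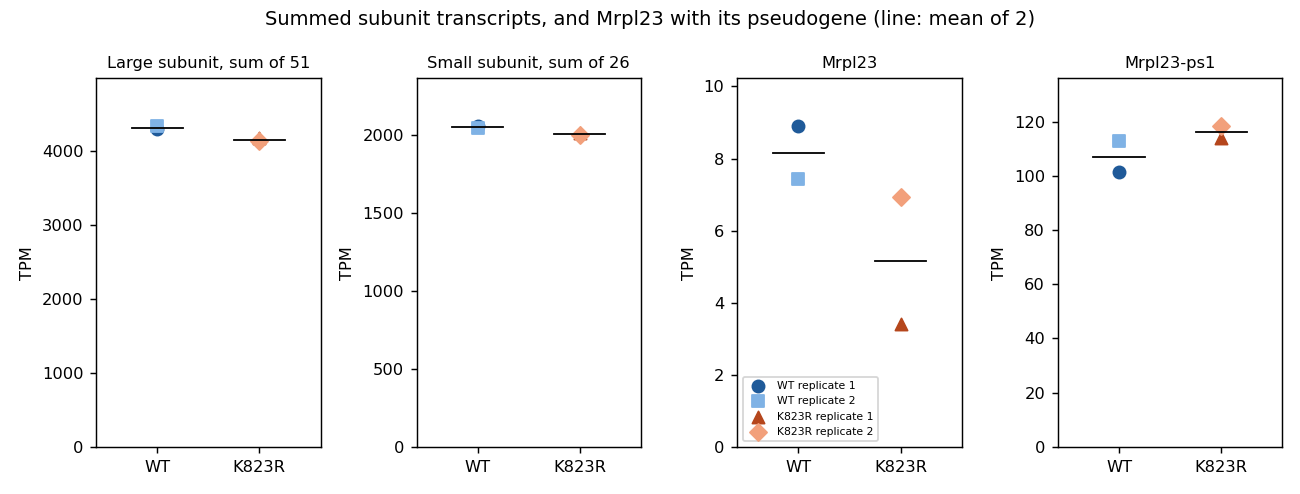
Summed TPM of the 51 large-subunit and 26 small-subunit genes, and TPM of Mrpl23 and of its pseudogene Mrpl23-ps1, in each library, with a line at the mean of 2 libraries. The subunit sums are 96.2% and 97.8% of WT in K823R, whereas Mrpl23 and Mrpl23-ps1 differ in opposite directions.

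Separation of the libraries followed the same direction. Both K823R libraries lay below both WT libraries for 25 of 78 members (32.1%), where 14.6% of all genes tested did so, and above both for 7 (8.97%), where 19.4% of all genes did so, and the libraries of the other 46 members overlapped. At an unadjusted p below 0.05 stood 10 members (12.8%), against 4.76% of all genes tested: 8 were lower and 2 higher, against 2.19% and 2.57%. These shares differ with transcript length, and those of each length class are given further on. A fit that leaves out 1 library has 1 library in a group and fewer degrees of freedom. Whether these counts rest on a single library therefore cannot be read from such fits. In them the members' median log2 difference ran from -0.0553 to -0.0296, and 46 to 53 members were lower.

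By median, the lean towards lower values was larger among large-subunit proteins with a bacterial counterpart than in the other 3 classes. Of these 29 genes, 22 were lower and 7 higher, with a median log2 difference of -0.10. Both K823R libraries lay below both WT libraries for 11 (37.9%) and above both for 0. Mrpl23, whose level is uncertain, is among the 11. Of all genes tested, 14.6% were apart below and 19.4% above. Of the 22 mitochondria-specific large-subunit genes, 14 were lower (median -0.04), with 6 apart below (27.3%) and 3 above (13.6%). Of the 16 small-subunit genes with a bacterial counterpart, 10 were lower (median -0.05), with 6 apart below (37.5%) and 3 above (18.8%). By share apart below, the bacterial-type classes of both subunits were thus alike. Of the 10 mitochondria-specific small-subunit genes, 6 were lower (median -0.04), with 2 apart below and 1 above. The differences between these classes were not tested, and none of their members passed the threshold.

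**Figure D4:**
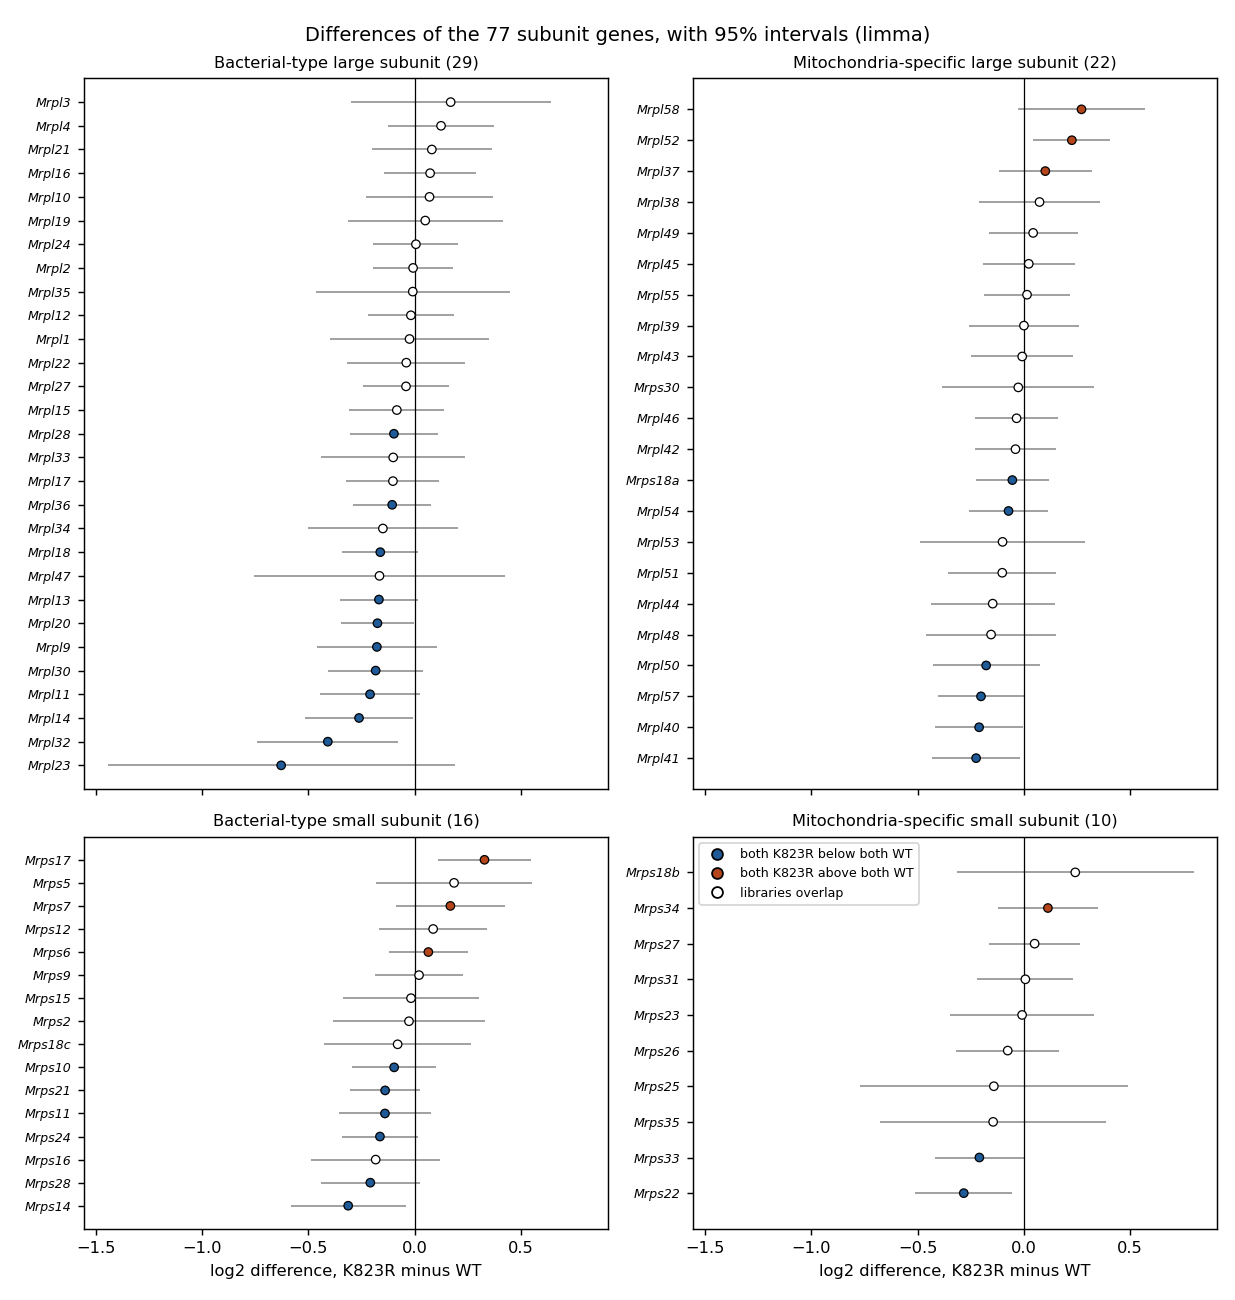
Log2 difference (K823R minus WT, on log2(TPM + 1)) of each of the 77 subunit genes with its 95% interval from limma, in 4 classes. Filled points are genes whose libraries do not overlap. Of 29 bacterial-type large-subunit genes 11 (37.9%) lie lower and 0 higher, against 14.6% and 19.4% of all genes tested. Most intervals in every class cross 0.

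Among large-subunit genes with lower values, Mrpl32 had the smallest p. Its product is cut into its mature form by the m-AAA protease of the inner membrane before it joins the ribosome, and its start region, printed above, is the one that holds both NRF1 and YY1 letters. Mrpl32 was at 37.5 and 42.0 TPM in WT against 26.9 and 32.6 TPM in K823R, a log2 difference of -0.41 (SE 0.13, 95% interval -0.74 to -0.08, unadjusted p = 0.0255, limma adjusted p = 0.918). Mrpl41, a mitochondria-specific protein, was at 206 and 224 TPM in WT against 189 and 179 TPM in K823R (log2 difference -0.22, SE 0.08). Mrpl14, the counterpart of bacterial L14 at the interface of the subunits, was at 94.3 and 109 TPM in WT against 83.5 and 85.7 TPM in K823R (log2 difference -0.26, SE 0.10, or -0.15 without WT replicate 2). Both are members whose libraries were apart, and both had a limma adjusted p of 0.918. Mrpl14 shares exon bases with Tmem63b on the opposite strand, at a mean of 85.8 TPM.

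The stalk and its surroundings bind the translation factors that split GTP. Of 5 genes listed for it, 4 were lower and 1 higher, with a median of -0.07. Mrpl11 was at 120 and 113 TPM in WT against 94.7 and 107 TPM in K823R, a log2 difference of -0.21 (SE 0.09, limma adjusted p = 0.918), or -0.13 without K823R replicate 1. Mrpl10, which anchors the stalk, was at 56.3 and 49.0 TPM in WT against 59.0 and 51.7 TPM in K823R, and Mrpl12, the stalk protein itself, was at 101 and 109 TPM in WT against 105 and 103 TPM in K823R. Mrpl10 and Mrpl12 overlapped between the genotypes. Around the peptide exit, 4 of 6 genes were lower (median -0.07), and Mrpl45, which tethers the ribosome to the inner membrane, was level at 27.8 and 26.6 TPM in WT against 27.3 and 28.0 TPM in K823R, with a 95% interval of -0.19 to 0.24.

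On the higher side of the large subunit stood Mrpl52 and Mrpl58. The Mrpl52 values given above made a log2 difference of 0.23 (SE 0.07, 95% interval 0.05 to 0.41, unadjusted p = 0.0243, limma adjusted p = 0.918), and the WT and K823R libraries did not overlap. Mrpl58, a peptidyl-tRNA hydrolase built into the large subunit that frees stalled ribosomes, was at 91.8 and 111 TPM in WT against 120 and 125 TPM in K823R. The log2 difference of this gene was 0.27 (SE 0.11, limma adjusted p = 0.918), and its 95% interval, from -0.03 to 0.57, included 0. It was 0.13 when WT replicate 1 was left out and 0.41 when WT replicate 2 was.

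In the small subunit, Mrps17 had the smallest p of all members. Mrps17 is the counterpart of bacterial S17, which binds the small-subunit rRNA. It was at 65.4 and 69.5 TPM in WT against 81.4 and 88.8 TPM in K823R, a log2 difference of 0.33 (SE 0.08, 95% interval 0.11 to 0.55, unadjusted p = 0.0128, limma adjusted p = 0.918). Both K823R libraries were above both WT libraries, and the difference stayed between 0.27 and 0.39 when any library was left out. Mrps7, a protein of the small-subunit head, was at 44.1 and 46.6 TPM in WT against 47.9 and 54.6 TPM in K823R (log2 difference 0.17, SE 0.10), also without overlap. Without K823R replicate 1 its difference was 0.26, and without K823R replicate 2 it was 0.08. Mrps7 shares exon bases on the opposite strand with Gga3, at a mean of 30.9 TPM, and with Mif4gd, at 18.0 TPM. Mrps5, whose bacterial counterpart lies near the entry of the mRNA, was at 43.4 and 37.4 TPM in WT against 41.4 and 51.1 TPM in K823R, which overlap, and its difference ran from 0.04 to 0.33 as each library was left out.

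Mrps22 and Mrps14 were the small-subunit genes with the smallest p on the lower side. Mrps22, a mitochondria-specific protein mutated in a human mitochondrial disease, was at 38.8 and 42.4 TPM in WT against 33.8 and 32.6 TPM in K823R. The log2 difference of this gene was -0.28 (SE 0.09, 95% interval -0.51 to -0.05, unadjusted p = 0.0251, limma adjusted p = 0.918). Mrps14, the counterpart of bacterial S14, was at 53.1 and 54.6 TPM in WT against 46.8 and 39.9 TPM in K823R (log2 difference -0.31, SE 0.10, limma adjusted p = 0.918), and the difference was -0.20 without K823R replicate 2. Neither gene overlapped between the genotypes. Mrps12, the counterpart of the bacterial decoding-centre protein S12, was at 136 and 129 TPM in WT against 152 and 131 TPM in K823R, where K823R replicate 1 alone was above both WT libraries.

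The 3 paralogs of bacterial S18 held separate levels. In the classes used above, Mrps18c was counted as having a bacterial counterpart, and Mrps18a and Mrps18b as mitochondria-specific. Mrps18a, whose product sits in the large subunit, was highest at 140 and 141 TPM in WT against 133 and 137 TPM in K823R. Mrps18c followed at 81.4 and 95.2 TPM in WT against 75.9 and 91.3 TPM in K823R, and Mrps18b was lowest at 51.5 and 41.6 TPM in WT against 66.2 and 45.6 TPM in K823R. In each library the order was Mrps18a, Mrps18c, Mrps18b. On the log2(TPM + 1) scale, Mrps18b, Mrps25 and Mrpl32 had the widest ranges of the members at 10 TPM or more. As folds of TPM the ranges were 1.59 for Mrps18b, 1.57 for Mrpl47, 1.56 for Mrps25 and 1.56 for Mrpl32. Mrps25 was at 42.4 and 32.6 TPM in WT against 41.5 and 27.2 TPM in K823R, so replicate 1 was the higher library in each group, and it shares exon bases with Nr2c2 on the opposite strand, at a mean of 10.53 TPM. Mrps36, now known mainly as a subunit of the 2-oxoglutarate dehydrogenase complex, was at 145 and 138 TPM in WT against 148 and 132 TPM in K823R.

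Mitochondrial ribosomal proteins that carry other symbols gave a mixed picture. Of 5 such genes, 4 were lower and 1 higher in K823R, and 0 passed the threshold. Chchd1, a small-subunit protein, was at 148 and 145 TPM in WT against 109 and 123 TPM in K823R, a log2 difference of -0.34 (SE 0.09, limma adjusted p = 0.918). Dap3, the GTP-binding protein of the small subunit, was at 70.5 and 72.8 TPM in WT against 81.4 and 78.1 TPM in K823R, a log2 difference of 0.15 (SE 0.07). Chchd1 and Dap3 were apart in opposite directions. Gadd45gip1, a large-subunit protein, was at 35.1 and 33.5 TPM in WT against 33.0 and 32.1 TPM in K823R. Aurkaip1, at 162 and 155 TPM in WT against 146 and 169.6 TPM in K823R, and Ptcd3, at 32.5 and 28.3 TPM in WT against 29.2 and 31.1 TPM in K823R, overlapped.

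No list of genes for the machinery around the ribosome held a gene past the threshold, and the lists are read against all genes tested, of which 42.6% were lower, with a median of 0.03. Of 26 genes for assembly and rRNA modification, 16 were higher and 10 lower (38.5%, median 0.06), with the smallest p for Mterf4, which recruits an rRNA methyltransferase, at 16.4 and 17.0 TPM in WT against 20.03 and 19.6 TPM in K823R. Of 15 translation factors and mRNA-handling genes, 9 were higher and 6 lower (40.0%, median 0.05), but the smallest p was on the lower side. It belonged to Slirp, which stabilises mitochondrial mRNAs, at 30.2 and 29.7 TPM in WT against 19.1 and 23.2 TPM in K823R (log2 difference -0.49, SE 0.12, unadjusted p = 0.0105, limma adjusted p = 0.918). Of 17 aminoacyl-tRNA synthetases, 12 were higher and 5 lower (29.4%, median 0.04), with the smallest p for Pars2, the prolyl enzyme, at 4.15 and 5.16 TPM in WT against 9.36 and 5.26 TPM in K823R. Of 4 transcription genes, 3 were lower (median -0.08), among them Tfam, which packages mitochondrial DNA, at 29.5 and 29.3 TPM in WT against 26.4 and 20.2 TPM in K823R. Of 10 regulators of mitochondrial genes, 7 were lower (median -0.04), and the smallest p, for Myc, was on the higher side at 8.18 and 7.20 TPM in WT against 11.04 and 8.53 TPM in K823R. Of 6 proteases, the class that matures Mrpl32 among others, 5 were higher (median 0.10), with the smallest p for Clpx, the unfoldase of the matrix ClpXP protease, at 20.7 and 17.9 TPM in WT against 22.8 and 21.7 TPM in K823R.

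The cytosolic ribosomal protein genes, a set of the same size, leaned the same way with a larger median. Of these 78 genes, 70 were lower in K823R (89.7%, against 42.6% of all genes tested), with a median of -0.10. Both K823R libraries lay below both WT libraries for 32 (41.0%, against 14.6%) and above both for 0 (against 19.4%). Of the 78 genes, 0 passed the threshold. Their sums were 56467 and 64397 TPM in WT against 55553 and 56644 TPM in K823R, so WT replicate 2 stood above the other 3 libraries. WT replicate 2 was also highest for the 12 mitochondrially encoded protein genes (60263 and 67470 TPM in WT against 60009 and 61738 TPM in K823R). It was also highest for the ribosomal RNA of the small subunit, mt-Rnr1 (408 and 657 TPM in WT against 436 and 507 TPM in K823R), and for that of the large subunit, mt-Rnr2 (355 and 504 TPM in WT against 355 and 409.5 TPM in K823R). The libraries were made from poly(A) RNA, so these values may not measure the amount of ribosomal RNA. WT replicate 2 was highest for the summed mitochondrial ribosomal protein genes too, at 6522 TPM, but close to WT replicate 1, at 6503 TPM. The comparison of the 2 ribosomal families was not tested.

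**Figure D5:**
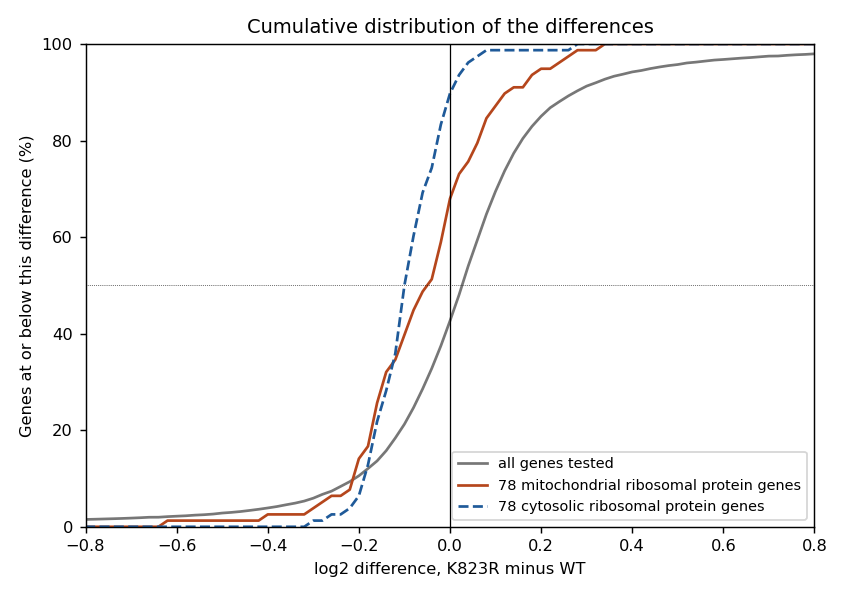
Share of genes at or below each log2 difference (K823R minus WT) for all 15390 genes tested, the 78 mitochondrial and the 78 cytosolic ribosomal protein genes. The mitochondrial curve crosses the 50% line at -0.05 and the cytosolic one at -0.10, both to the left of the curve of all genes at 0.03.

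Transcript length went with the direction of the differences. Among all genes between 24.5 and 142 TPM, the 10th to 90th percentile of the members, 56.2% of those under 1000 bases were lower in K823R, 46.2% of those from 1000 to 2000 bases, and 36.2% of those of 2000 bases or more. Of the members, 19 of 24 (79.2%) were lower in the short class (median -0.08), 15 of 28 (53.6%) in the middle class (median -0.01) and 19 of 26 (73.1%) in the long class (median -0.09). The short class of all genes had a median of -0.02 and the long class 0.04. In the short, middle and long class, both K823R libraries lay below both WT libraries for 22.7%, 18.3% and 11.5% of all genes at that level. For the members, in the same order, it was 45.8%, 32.1% and 19.2%. They lay above both for 15.0%, 17.5% and 19.7% of all genes, and for 12.5%, 7.14% and 7.69% of the members. At an unadjusted p below 0.05 (limma) stood 10.3%, 5.35% and 3.72% of all genes, and 16.7%, 10.7% and 11.5% of the members. The part of length in the members' values was not tested.

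Markers of other cells also differed between the libraries. The 11 neuron markers summed to 16435 to 18985 TPM in WT against 17773 to 18310 TPM in K823R, with none at 0 in any library. Of 9 myelinating Schwann cell markers 8 were higher in K823R, with sums of 11621 to 14437 TPM in WT against 14353 to 17117 TPM in K823R, with none at 0. Of the 11 oligodendrocyte and astrocyte markers tested 10 were higher, and all 12 listed had sums of 72.0 to 294 TPM in WT against 356 to 419 TPM in K823R. Mag is in this list and in that of the Schwann cells, and is counted in both. In WT replicate 1, 2 of the 12 were at 0. All 10 fibroblast and meninges markers were higher, with sums of 353 to 1089 TPM in WT against 918 to 2866 TPM in K823R and none at 0. Of 9 macrophage markers 8 were higher, with sums of 55.5 to 89.2 TPM in WT against 90.4 to 120 TPM in K823R. Of 9 endothelium and mural cell markers 8 were higher, with sums of 136 to 159 TPM in WT against 154 to 166 TPM in K823R. The 8 pituitary markers summed to 2.54 to 4.8 TPM in WT against 20.1 to 23.8 TPM in K823R, with Fshb and Lhb at 0 in every library. The 7 satellite glia markers, of which 3 were higher and 4 lower, summed to 11144 to 11211 TPM in WT against 11147 to 12420 TPM in K823R. Single genes made up much of some sums. The highest mean of a marker over the 4 libraries was 10326.5 TPM for satellite glia. It was 6471 TPM for myelinating Schwann cells and 883 TPM for fibroblasts and meninges. All 5 erythroid and blood markers were lower, with sums of 245 to 492 TPM in WT against 319 to 334 TPM in K823R. The part of these markers in the small differences of the mitochondrial ribosomal protein genes was not tested. Trpv1 itself was at 39.2 and 30.6 TPM in WT against 40.9 and 35.0 TPM in K823R, and Pearson's r between libraries was 0.965 to 0.969 across genes.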

How the data were processed

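Poly(A) RNA libraries of 2 WT and 2 K823R samples, grouped by title, were sequenced on Illumina instruments, per the labels' protocols. Per the submitters' processing notes the tools included RSEM, HISAT2, edgeR and fastp 0.19.5, with the build GRCm38.p6. The sources used here give neither annotation release nor strand setting. Deposited values are TPM, scaled by the authors to the same sum in each library, so read depth is unknown and no counting interval can be given. RSEM-type estimation divides reads shared between copies.

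The plan named limma on log2(TPM + 1) for a table of TPM and a count test otherwise. As the table holds TPM, limma was used. limma 3.58.1 (R 4.3.3, variance trend, prior 2.67 and residual 2 degrees of freedom) was fitted to log2(TPM + 1) of all 4 libraries for the 15390 genes whose mean was 1 TPM or more, two-sided, with Benjamini-Hochberg adjustment over all of them and a threshold of 0.05. Differences are on that scale, which understates changes of low genes. It was tested on simulated data, and rerun with another pseudocount, other filters and scalings, a replicate block and each library left out. Coordinates, overlaps and neighbours come from GENCODE M21 (all 78 matched by ID), copies from BLAST 2.17.0 and start regions from RefSeq.

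The members and lists were chosen with earlier results of these data known. Named members are those past the threshold, the 5 with the smallest p in each direction, the 5 highest and 5 lowest levels, the 3 widest ranges at 10 TPM or more, a fixed group with known roles (the S18 paralogs, Mrpl10, Mrpl11, Mrpl12, Mrps12, Mrpl32, Mrpl45, Mrpl58, Mrps30, Mrps36), the ribosomal proteins under other symbols and the gene with the smallest p of each other list. Mrpl46, Mrps11, Mrps33, Mrpl9, Mrpl39, Mrpl17 and the other paired or overlapping genes were named after their values were seen.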

Additional observations from a re-analysis of the deposited data

How the results depend on the processing

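No member passed the threshold under any of the 12 alternatives, which varied the pseudocount, filter and scaling, added the replicate block or left out 1 library; the lowest adjusted p of a named member was 0.618 (limma). The 1 gene past the threshold over all genes became 0 without a filter, 2 at a mean of at least 10 TPM, 0 with the replicate block and 0 with any 1 library left out. The members' median log2 difference was -0.047 with the replicate block, as without it, with 53 members lower and 9 lower and 3 higher at an unadjusted p below 0.05. It was -0.0696 with median-of-ratios scaling, -0.0634 with upper-quartile scaling and -0.0699 with quantile normalization, and ran from -0.0553 to -0.0296 with a library left out (large subunit -0.0815 to -0.0341, small subunit -0.0647 to -0.0116). Over the same scalings the median of all genes ran from -0.0028 to 0.011. Lower members numbered 51 to 59 with all libraries (51 of the fewer members tested at 10 TPM) and 46 to 53 with 1 left out, 46 being without K823R replicate 2. At a pseudocount of 0.1 TPM, 5 members were lower at an unadjusted p below 0.05 in place of 8. The replicate numbers are shared by title only: the replicate differences of the 2 groups correlated at r = 0.050 across 15390 genes.

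Of 334 values of the 28 named members under alternatives, 313 kept their direction. Mrpl45 turned to -0.0095 with quantile normalization. With a library left out, 13 members turned: Mrpl1 ran from -0.16 to 0.11, Mrpl10 from -0.028 to 0.17, Mrpl12 from -0.074 to 0.040, Mrpl19 from -0.095 to 0.20, Mrpl42 from -0.094 to 0.016, Mrpl45 from -0.0071 to 0.055, Mrpl47 from -0.47 to 0.14, Mrps12 from -0.014 to 0.19, Mrps18b from -0.022 to 0.51, Mrps18c from -0.21 to 0.053, Mrps25 from -0.44 to 0.15, Mrps30 from -0.15 to 0.10 and Mrps36 from -0.094 to 0.065. In these fits the lone library is assumed to vary like the other group. The cause of these changes was not tested. Depth is unknown, and 2 libraries a group limit what could be seen.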
